A study of Mus musculus with 26 samples.

Results

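The genes described here make cholesterol and fatty acids or control their making. There are 17 enzymes of the sterol pathway, 11 of the fatty acid arm, 6 genes of SREBP control and sterol transport, and 3 targets of the liver X receptors (LXR). The fatty acid arm covers synthesis and desaturation and also holds Lpin1, an enzyme of glycerolipid synthesis. All genes were chosen by name, each as the brightest probe set with that single gene symbol. All 37 were measured, among 19938 genes in all. Expression was read on 26 Affymetrix Mouse Gene arrays from Ba/F3/gp130 cells, a murine pro-B cell line that depends on interleukin-3 or Hyper-IL-6 (a fusion of IL-6 and its soluble receptor) and that carries gp130 in every group. Per the labels' protocols, cells kept in Hyper-IL-6 were washed 4 times, starved for 4 h without serum and given 100 ng/ml of purified protein for 2 h. Cells with the natural receptor chains IL-10R2 and IL-22Rα1 received IL-22 (4 arrays) or nothing (4 arrays). Cells with synthetic chains, in which IL-22Rα1 carries a nanobody against GFP and IL-10R2 one against mCherry, received a fusion of GFP and mCherry able to engage the pair (6 arrays), mCherry-Fc, a dimer that can bind the mCherry nanobody only (6 arrays), or nothing (6 arrays). No group received a protein without a receptor to bind, so adding protein and engaging the receptor cannot be told apart in the comparisons with untreated cells. The labels do not say whether each line is a single clone, or whether arrays of a group came from separate cultures, so p-values measure only the spread between these arrays.

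Cholesterol is built from acetyl-CoA through mevalonate, squalene and lanosterol, and most enzymes of this route are transcribed together under the sterol regulatory element binding proteins (SREBPs). When membrane sterol is low, the escort protein Scap carries SREBPs to the Golgi, where they are cleaved into active factors, and when sterol is plentiful the Insig proteins hold Scap back in the endoplasmic reticulum. Fatty acid synthesis is driven mainly by the SREBP made from Srebf1, whereas LXR, activated by oxysterols, raises genes of cholesterol export and of lipoprotein receptor decay. Dividing lymphoid cells need both pathways for new membrane.

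Array values are log2 intensities, so that a difference of 1 is a doubling, and a gene is called where limma's Benjamini-Hochberg adjusted p over all 19938 genes is below 0.05. In these bulk samples, fewer cells expressing a gene and less RNA per cell cannot be told apart. Of the 11 measured B lineage markers, Cd79a (group means 9.33 to 9.72) and Cd79b (8.80 to 9.08) were bright. Vpreb2 (6.97 to 7.30) lay above the array medians, which ranged from 6.06 to 6.28. Igll1 (6.19 to 6.44) lay around them and Vpreb3 (5.71 to 6.22) around or below them. Ebf1 (4.58 to 4.76), Pax5 (5.28 to 5.55), Rag1 (4.86 to 5.03), Dntt (4.40 to 4.51), Vpreb1 (5.13 to 5.34) and Blnk (4.74 to 4.87) stayed below. Of 10 myeloid and mast cell markers, Prtn3 (10.02 to 10.80) was bright in every group, Mpo lay at 7.21 to 8.99, Itgam was bright in natural cells only (9.66 and 10.34, against 5.42 to 5.59 in synthetic cells), and the group means of the other 7 lay between 3.89 and 6.52. Arrays with high replicate numbers (natural 4 and 5, synthetic 12 to 15) differed from those with low numbers (natural 1 to 3, synthetic 7 to 11) in many of the 37 genes, and the single IL-22 array of the high range, replicate 5, stood apart from the other IL-22 arrays. The labels do not say what the numbers stand for, and values within a single range are given beside a number of results.

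In cells with natural receptors, IL-22 lowered Mylip, Lpin1, Abcg1, Tm7sf2, Scd2 and Srebf1 and raised Pmvk and Srebf2. That is 8 of the 37 genes, 2 higher and 6 lower, against 11.4% of all genes called, 5.39% higher and 6.03% lower. By arm, 2 of 17 sterol enzymes, 2 of 11 fatty acid enzymes, 2 of 6 control genes and 2 of 3 LXR targets were called. The median change was 0.05 over the sterol enzymes and -0.08 over the fatty acid enzymes, against -0.02 over all genes.

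Mylip, a ubiquitin ligase that sends lipoprotein receptors to degradation and is a direct LXR target, fell most. Its log2 intensity was 7.35, 7.50, 7.26 and 7.32 on the IL-22 arrays, against 8.59, 8.55, 8.23 and 8.04 on the untreated arrays. The groups did not overlap, and the change of -0.997 ± 0.09 (SE; limma adjusted p = 6.98e-10) is a 2.00-fold fall. It was -1.20 within low numbers and -0.82 within high numbers. Abcg1, an exporter of cholesterol to lipoproteins and another LXR target, stood at 7.62, 7.57, 7.61 and 7.87 with IL-22, against 8.14, 8.10, 8.09 and 8.08 without. All 4 IL-22 arrays were lower (-0.44 ± 0.07, adjusted p = 1.98e-05), although the call was not reached within high numbers (-0.22, adjusted p = 0.392), where a single IL-22 array is set against 2 untreated ones. The third LXR target, the cholesterol and phospholipid exporter Abca1, had 8.55, 8.65, 8.60 and 8.29 with IL-22, against 9.27, 9.37, 8.54 and 8.38 without, and the groups overlapped (-0.37 ± 0.17, adjusted p = 0.191). With the replicate number as a block, since same-numbered natural arrays deviated together, Abca1 passed (-0.49, adjusted p = 0.0275), and within low numbers its change was -0.72 (adjusted p = 4.26e-05). Within high numbers its single IL-22 array (8.29) lay closer to the untreated ones (8.54 and 8.38), and it was not called.

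Lpin1, a phosphatidate phosphatase that makes the diacylglycerol backbone of glycerolipids, was the other large fall. It read 7.83, 7.78, 7.75 and 8.87 on the IL-22 arrays, against 8.73, 8.72, 9.21 and 9.41 on the untreated arrays. Replicate 5 was the high IL-22 value and overlapped the untreated arrays. The change was -0.96 ± 0.18 (adjusted p = 0.000291) over all arrays, -1.23 without replicate 5, -0.94 within low numbers and -0.44 (adjusted p = 0.177) within high numbers. Scd2, a stearoyl-CoA desaturase, had 12.44, 12.52, 12.55 and 12.47 with IL-22, against 12.85, 12.76, 12.68 and 12.64 without. The groups did not overlap, and the difference was small (-0.24 ± 0.05, adjusted p = 0.00233).

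The 2 SREBP genes moved in opposite directions. Srebf1 had 8.77, 8.88, 8.77 and 8.79 with IL-22, against 9.05, 9.17, 9.00 and 8.89 without (-0.23 ± 0.06, adjusted p = 0.0127). Srebf2, which encodes the factor that acts mainly on sterol genes, had 10.73, 10.57, 10.59 and 10.28 with IL-22, against 10.39, 10.42, 10.14 and 10.06 without (0.29 ± 0.08, adjusted p = 0.0161). Neither call held with the replicate block (Srebf1 -0.22, adjusted p = 0.0598; Srebf2 0.19, adjusted p = 0.0577). Insig1, the sterol sensor that is itself a sensitive SREBP target, had 10.69, 10.74, 10.68 and 9.78 with IL-22, against 11.03, 10.93, 10.17 and 9.79 without. The values of each group were widely spread, the 2 lowest untreated values and the lowest IL-22 value all came from high numbers, and over all arrays the change was -0.01 ± 0.19 (adjusted p = 0.994). Within low numbers Insig1 was lower with IL-22 on every array (-0.27, adjusted p = 0.0148).

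Insig2, its less sterol-responsive relative, ran the other way across the numbers, with 7.89, 7.98, 7.87 and 9.14 with IL-22, against 8.18, 8.10, 8.73 and 9.09 without (-0.30 ± 0.19, adjusted p = 0.428). Without replicate 5 its change was -0.61 (adjusted p = 0.00214). That fit sets low-numbered IL-22 arrays against untreated arrays of both ranges, and the high-numbered untreated arrays (8.73 and 9.09) were the higher ones. Scap (0.00 in size, adjusted p = 0.994) and Stard4, a carrier of cholesterol between membranes (0.05, adjusted p = 0.894), did not pass.

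Among the sterol enzymes, Tm7sf2, a sterol reductase, had 6.58, 6.56, 6.61 and 6.61 with IL-22, against 6.87, 6.79, 6.83 and 6.95 without (-0.27 ± 0.07, adjusted p = 0.0115). Pmvk, phosphomevalonate kinase, had 8.26, 8.30, 8.22 and 8.06 with IL-22, against 8.04, 8.03, 7.78 and 7.94 without (0.26 ± 0.08, adjusted p = 0.0254). Neither gene's groups overlapped. The Pmvk call was lost with the replicate block (0.19, adjusted p = 0.239), whereas Tm7sf2 passed with it (-0.28, adjusted p = 0.0458). Tm7sf2 lost its call when every array was centred on its median, as did Srebf1. Cyp51, the lanosterol demethylase, had the largest estimate of the arm without a call (0.43 ± 0.17, adjusted p = 0.103). Without IL-22 replicate 5 it passed at 0.61 (adjusted p = 0.00548).

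Other enzymes on the way to squalene and lanosterol overlapped between the natural groups. Hmgcs1, the HMG-CoA synthase that feeds the mevalonate pathway, had 11.10, 11.15, 11.21 and 10.83 with IL-22, against 11.30, 11.12, 11.00 and 10.93 without. Idi1, the isopentenyl diphosphate isomerase, had 9.01, 9.19, 9.19 and 8.39 with IL-22, against 8.87, 8.69, 8.32 and 8.37 without (0.38 ± 0.20, adjusted p = 0.302). Fdps, farnesyl diphosphate synthase, had 9.86, 9.77, 9.71 and 9.42 with IL-22, against 9.63, 9.72, 9.37 and 9.33 without (0.18 ± 0.10, adjusted p = 0.309). In all 3 genes the lowest IL-22 value was replicate 5. Sqle, squalene epoxidase, had 9.60, 9.78, 9.61 and 9.64 with IL-22, against 9.79, 9.76, 9.69 and 9.72 without (-0.08 ± 0.09, adjusted p = 0.727).

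Within high numbers, where 1 IL-22 array is set against 2 untreated ones and 3.81% of all genes were called, Mylip was the only member called. Pmvk (0.20), Srebf2 (0.18), Srebf1 (-0.15), Scd2 (-0.19) and Tm7sf2 (-0.28) kept their direction there without a call.

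The fatty acid enzymes other than Scd2 and Lpin1 gave no call. Fasn, the fatty acid synthase, had 10.51, 10.45, 10.45 and 9.85 with IL-22, against 10.22, 10.41, 9.75 and 9.74 without (0.28 ± 0.13, adjusted p = 0.222). Acaca, the acetyl-CoA carboxylase that makes malonyl-CoA, had 9.82, 9.77, 9.83 and 9.71 with IL-22, against 9.94, 10.00, 9.71 and 9.77 without. Acly, which supplies cytosolic acetyl-CoA from citrate, had 10.06, 10.09, 10.06 and 10.11 with IL-22, against 10.17, 10.18, 10.05 and 10.05 without. The groups overlapped in all 3 genes. Scd1, the other stearoyl-CoA desaturase on the list, read 4.47 to 5.00 over all 26 arrays, below the median probe set of every array, and no comparison called it.

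Without IL-22 replicate 5, 14 of the 37 genes passed, 6 higher and 8 lower, and the 8 called over all arrays were among them, against 15.6% of all genes called in that fit. Sc5d (0.33), Fasn (0.44), Elovl6 (0.52) and Cyp51 (0.61) then rose and Me1 (-0.39) and Insig2 (-0.61) fell. Within low numbers 14 genes passed as well, 2 higher and 12 lower, against 16.1% of all genes, and there the desaturases Fads1 (-0.26, adjusted p = 0.0145) and Fads2 (-0.26, adjusted p = 0.00492) and the acetyl-CoA synthetase Acss2 (-0.34, adjusted p = 0.00485) fell too. The changes seen without replicate 5, the falls of Me1 and Insig2 included, set 3 low-numbered IL-22 arrays against untreated arrays of both ranges. Cyp51, Sc5d, Fasn and Elovl6 were not called within low numbers. Me1 averaged 9.94 with IL-22 and 10.02 untreated within low numbers, and 10.63 in the high-numbered untreated arrays.

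**Figure D1:**
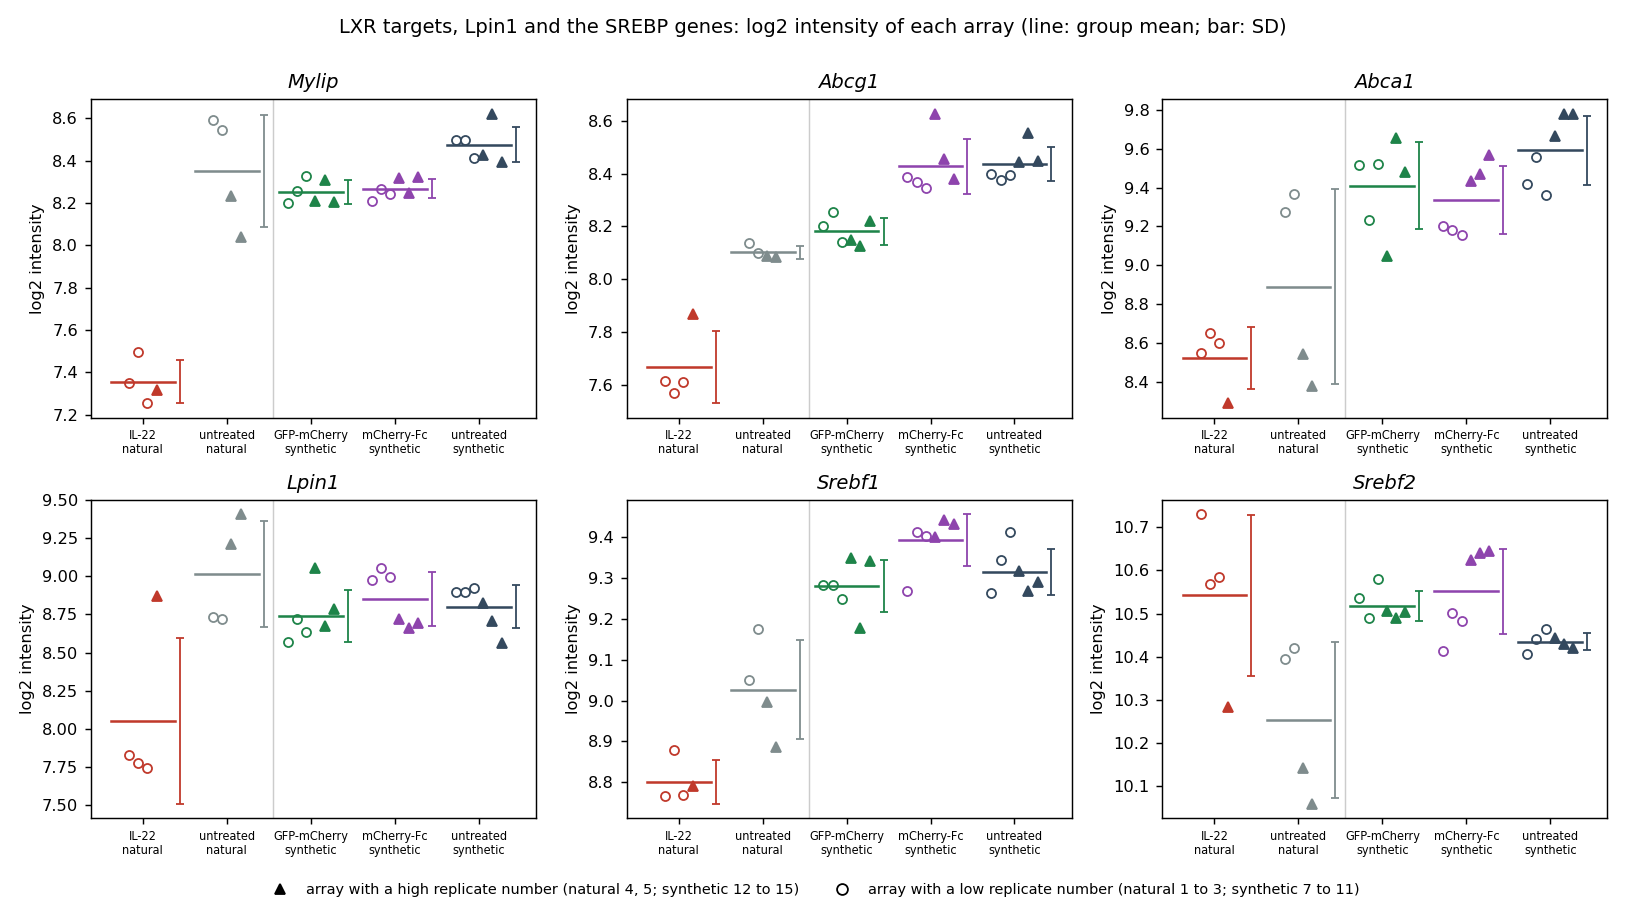
Log2 intensity of Mylip, Abcg1, Abca1, Lpin1, Srebf1 and Srebf2 on each array (points), with the group mean (line) and SD (bar), in the 5 groups. Filled triangles are arrays with high replicate numbers. Mylip lies at 7.26 to 7.50 with IL-22, below its values in the other 4 groups, and the IL-22 array of the high range is the high point of Lpin1 at 8.87.

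In cells with synthetic receptors, GFP-mCherry lowered a run of sterol genes together with Insig1. Hmgcs1, Fdft1, Lss, Msmo1, Sc5d, Dhcr7, Insig1, Mylip and Abcg1 fell, and Pmvk, Mvd and Ebp rose. That is 12 of the 37 genes, 3 higher and 9 lower. The background here is high: 26% of all genes were called, 14.2% higher and 11.8% lower. The sterol enzymes gave 9 of 17 calls and the fatty acid enzymes 0 of 11. By limma's unadjusted p, 1 of those 11 was under 0.05. The median change was -0.05 over the sterol enzymes, -0.06 over the fatty acid enzymes and -0.04 over all genes.

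Insig1 had the largest change. Its lowest, median and highest values were 10.37, 10.48 and 10.53 with GFP-mCherry, against 10.84, 10.98 and 11.14 in untreated cells. The groups stood clear of each other, at -0.51 ± 0.16 (adjusted p = 0.0179), a 1.42-fold fall, and the change was -0.43 within low numbers and -0.59 within high numbers. Lss, which closes squalene epoxide into lanosterol, had 8.96, 9.15 and 9.21 with GFP-mCherry, against 9.32, 9.59 and 9.78 without (-0.48 ± 0.12, adjusted p = 0.00443). Hmgcs1 had 11.04, 11.06 and 11.08 with GFP-mCherry, against 11.26, 11.41 and 11.65 without (-0.37 ± 0.07, adjusted p = 0.000252). Hmgcs1 and Lss were the only members whose fall was called in all 24 alternative settings run for this comparison.

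Dhcr7, which completes cholesterol, had 10.25, 10.44 and 10.57 with GFP-mCherry, against 10.59, 10.77 and 10.99 without (-0.36 ± 0.10, adjusted p = 0.00786). Sc5d, a sterol desaturase, had 9.41, 9.54 and 9.63 with GFP-mCherry, against 9.71, 9.84 and 10.06 in untreated cells (-0.33 ± 0.09, adjusted p = 0.00891). Neither gene's groups overlapped. Msmo1, a methylsterol oxidase (-0.33 ± 0.07, adjusted p = 0.00193), and Fdft1, squalene synthase (-0.24 ± 0.07, adjusted p = 0.00825), also fell, with overlapping groups. Within low numbers Dhcr7 (-0.18, adjusted p = 0.0591), Msmo1 (-0.16, adjusted p = 0.117) and Fdft1 (-0.14, adjusted p = 0.229) were not called, and within high numbers they were at -0.53, -0.49 and -0.34.

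The rises lay at other steps of the same route. Ebp, a sterol isomerase, had 8.33, 8.52 and 8.65 with GFP-mCherry, against 7.99, 8.09 and 8.33 in untreated cells (0.38 ± 0.09, adjusted p = 0.00212). Mvd, the mevalonate diphosphate decarboxylase, had 9.20, 9.31 and 9.44 with GFP-mCherry, against 8.97, 9.06 and 9.18 without (0.23 ± 0.08, adjusted p = 0.0274). Pmvk, the step before it, had 8.44, 8.51 and 8.68 with GFP-mCherry, against 8.21, 8.29 and 8.38 without (0.26 ± 0.06, adjusted p = 0.00391). Members of the same pathway were thus called in both directions. For Ebp the lowest GFP-mCherry array (8.331) lay just above the highest untreated array (8.327). The call of Mvd was not reached within low numbers (0.17, adjusted p = 0.0861), nor those of Ebp (0.23, adjusted p = 0.131) and Pmvk (0.16, adjusted p = 0.155) within high numbers.

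Of the LXR targets, Mylip had 8.20, 8.23 and 8.33 with GFP-mCherry, against 8.40, 8.46 and 8.62 without (-0.22 ± 0.07, adjusted p = 0.0182). Abcg1 had 8.12, 8.17 and 8.25 with GFP-mCherry, against 8.38, 8.42 and 8.55 without (-0.25 ± 0.05, adjusted p = 0.000975). Abca1, with 9.04, 9.50 and 9.66 with GFP-mCherry, against 9.36, 9.61 and 9.78 without, did not pass (-0.18 ± 0.14, adjusted p = 0.329). Srebf1 (-0.04 ± 0.05), Srebf2 (0.08 ± 0.07), Scap (0.06 ± 0.06) and Insig2 (-0.04 ± 0.16) were not called. Centring every array on its median, which raised the median change of all genes by 0.102, left 6 of the 37 genes called, 4 higher and 2 lower. Insig1 (-0.41, adjusted p = 0.0619), Fdft1, Msmo1, Sc5d, Dhcr7, Mylip and Abcg1 then lost their calls. The array medians averaged 6.10 with GFP-mCherry and 6.20 in untreated cells. Quantile normalization, which moved the changes of all genes by a median of 0.029, kept the calls of all these falls and lost that of Mvd. Why the 2 scalings differ was not tested.

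With mCherry-Fc, limma called 0 sterol enzymes lower. Mvd, Ebp, Pmvk, Sqle and Acly rose and Mylip fell: 6 of 37 genes, 5 higher and 1 lower, against 26.9% of all genes, 14% higher and 13% lower. The median change was 0.09 over the sterol enzymes, 4 of 17 called, and 0.01 over the fatty acid enzymes, 1 of 11 called, against -0.04 over all genes. The 6 calls are 16.2% of the members, a smaller share than the background, and the difference between the 2 shares was not tested.

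Mvd had 9.15, 9.44 and 9.60 with mCherry-Fc, against 8.97, 9.06 and 9.18 in untreated cells (0.36 ± 0.08, adjusted p = 0.00161), with 0.13, adjusted p = 0.195, within low numbers and 0.58 within high numbers. Ebp had 8.24, 8.44 and 8.71 with mCherry-Fc, against 7.99, 8.09 and 8.33 without (0.31 ± 0.09, adjusted p = 0.0108). Pmvk had 8.32, 8.45 and 8.70 with mCherry-Fc, against 8.21, 8.29 and 8.38 without (0.20 ± 0.06, adjusted p = 0.0240). The 3 genes that rose with GFP-mCherry thus also rose here, where the same untreated arrays serve both comparisons. The Pmvk call was not reached within low numbers (0.14, adjusted p = 0.118).

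Sqle had 9.76, 9.96 and 10.10 with mCherry-Fc, against 9.46, 9.75 and 9.97 without (0.20 ± 0.07, adjusted p = 0.0478), and Acly 10.44, 10.46 and 10.49 with mCherry-Fc, against 10.29, 10.34 and 10.42 without (0.11 ± 0.04, adjusted p = 0.0365). Mylip had 8.21, 8.26 and 8.32 with mCherry-Fc, against 8.40, 8.46 and 8.62 without (-0.21 ± 0.07, adjusted p = 0.0280). Deviations of same-numbered mCherry-Fc and untreated arrays correlated at 0.260 to 0.466, but only 2 of 6 arrays correlated best with their own number. With the number as a block, Sqle (0.24, adjusted p = 0.0568), Acly (0.12, adjusted p = 0.151), Mylip (-0.22, adjusted p = 0.0750) and Pmvk (0.22, adjusted p = 0.0751) lost their calls, and Srebf2 (0.17, adjusted p = 0.0467) and the dim Scd1 (-0.30, adjusted p = 0.0182) gained one. No member was called with mCherry-Fc in every setting run. Leaving out untreated replicate 7, for example, left 2 of the 37 genes called, and leaving out mCherry-Fc replicate 14 did so too.

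**Figure D2:**
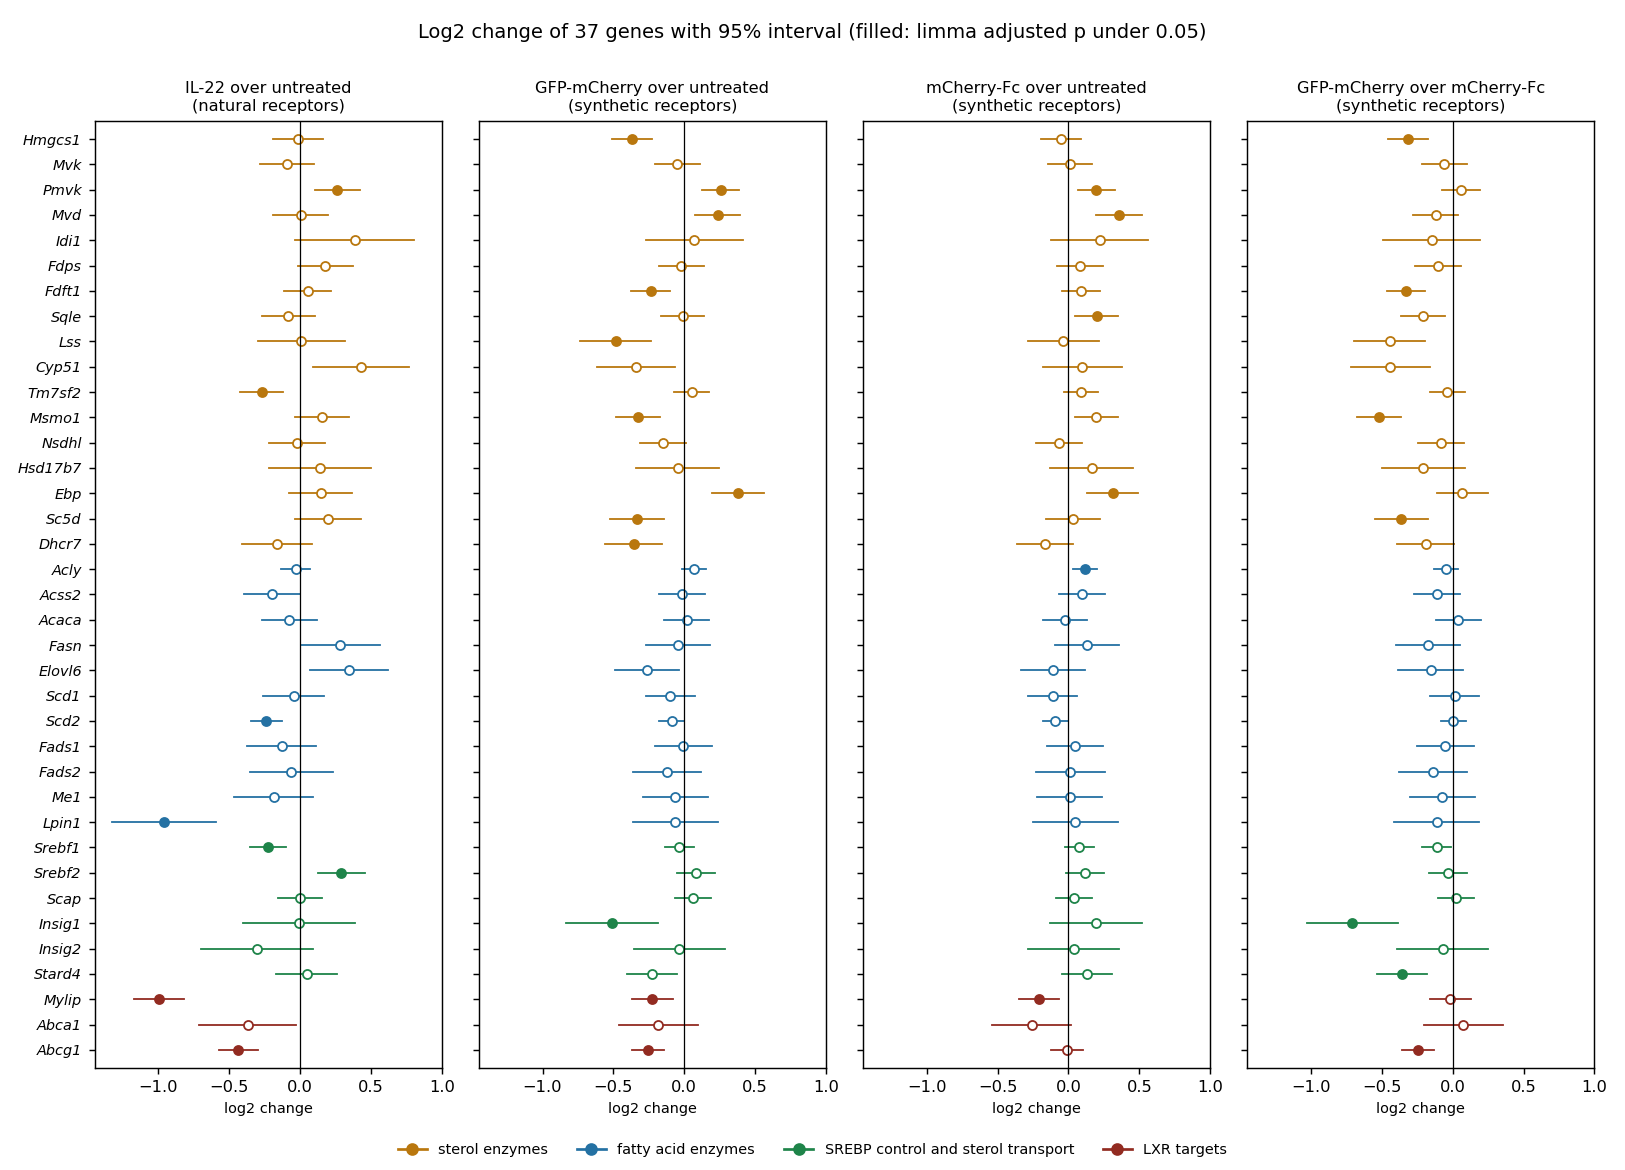
Log2 change of each of the 37 genes (points) with its 95% interval (lines) for IL-22, GFP-mCherry and mCherry-Fc over untreated cells and for GFP-mCherry over mCherry-Fc, coloured by arm. Filled points have a limma adjusted p below 0.05. In the right panel the 7 filled points, among them Insig1 at -0.71 and Msmo1 at -0.52, all lie below 0, and no fatty acid enzyme is filled.

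The direct comparison of the 2 synthetic ligands, which differ in the chains they can bind, called few genes in all. Insig1, Msmo1, Sc5d, Stard4, Fdft1, Hmgcs1 and Abcg1 were lower with GFP-mCherry than with mCherry-Fc, and 0 members were higher by limma, at an adjusted or an unadjusted p under 0.05: 7 of 37 genes. Over all genes 1.09% were called, 0.722% higher and 0.371% lower. By arm, 4 of 17 sterol enzymes, 2 of 6 control genes, 1 of 3 LXR targets and 0 of 11 fatty acid enzymes were called, and 0 of these 11 had an unadjusted limma p under 0.05. The median change was -0.19 over the sterol enzymes, with 15 of 17 below 0. Over the fatty acid enzymes it was -0.07, with 8 of 11 below 0, and over all genes 0.00, with 9787 of 19938 below 0. Within low numbers, Ebp, Pmvk, Mvk, Idi1, Nsdhl, Fdps, Mvd, Tm7sf2 and Hsd17b7 averaged higher with GFP-mCherry than with mCherry-Fc, and Dhcr7 stood level. The other sterol enzymes averaged lower there.

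Insig1 read 10.37, 10.48 and 10.53 (lowest, median, highest) with GFP-mCherry, against 10.94, 11.21 and 11.33 with mCherry-Fc. Its groups were far apart (-0.71 ± 0.16, adjusted p = 0.0161), a 1.63-fold difference that was called in every one of the 24 settings run, as was Msmo1. Msmo1 had 10.51, 10.59 and 10.68 with GFP-mCherry, against 10.98, 11.17 and 11.18 with mCherry-Fc (-0.52 ± 0.07, adjusted p = 7.08e-05). Sc5d had 9.41, 9.54 and 9.63 with GFP-mCherry, against 9.76, 9.89 and 10.01 with mCherry-Fc (-0.36 ± 0.09, adjusted p = 0.0494).

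Stard4 had 9.42, 9.51 and 9.56 with GFP-mCherry, against 9.70, 9.87 and 9.96 with mCherry-Fc (-0.35 ± 0.09, adjusted p = 0.0330). Fdft1 had 10.20, 10.35 and 10.47 with GFP-mCherry, against 10.59, 10.69 and 10.74 with mCherry-Fc (-0.33 ± 0.07, adjusted p = 0.00507), and its second probe set gave -0.40. None of these groups overlapped, nor did those of Hmgcs1 (11.04, 11.06 and 11.08 with GFP-mCherry, against 11.32, 11.39 and 11.42 with mCherry-Fc; -0.32 ± 0.07, adjusted p = 0.0138). Abcg1 had 8.12, 8.17 and 8.25 with GFP-mCherry, against 8.34, 8.39 and 8.63 with mCherry-Fc (-0.25 ± 0.05, adjusted p = 0.0150).

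Sc5d and Stard4 passed narrowly, each losing its call in 11 of 24 settings. The 3 shared numbers deviated together only weakly (correlations of 0.105 to 0.271). The replicate block was fitted over all arrays, also those of GFP-mCherry and untreated cells whose numbers were not taken as pairs. Its calls are thus given as an alternative only. With the replicate block, 4 members passed: Insig1 (-0.72, adjusted p = 9.57e-05), Msmo1 (-0.50, adjusted p = 0.0127), Sc5d (-0.38, adjusted p = 0.0195) and Lss (-0.48, adjusted p = 0.0101). Hmgcs1 (-0.28, adjusted p = 0.225), Fdft1 (-0.32, adjusted p = 0.135), Stard4 (-0.33, adjusted p = 0.144) and Abcg1 (-0.28, adjusted p = 0.190) then missed the threshold. Lss and Cyp51 had larger differences than several called genes (-0.44 each) and wider spread, with adjusted p of 0.0821 and 0.164. Within high numbers 12 members were called, all lower, against 1.57% of all genes, and within low numbers 7, against 2.53%, of which 6 were lower and Ebp (0.32, adjusted p = 0.0142) higher. Fdft1 (-0.28, adjusted p = 0.113) and Abcg1 (-0.17, adjusted p = 0.113) were not among the 7. Leaving out mCherry-Fc replicate 13 left 4.

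**Figure D3:**
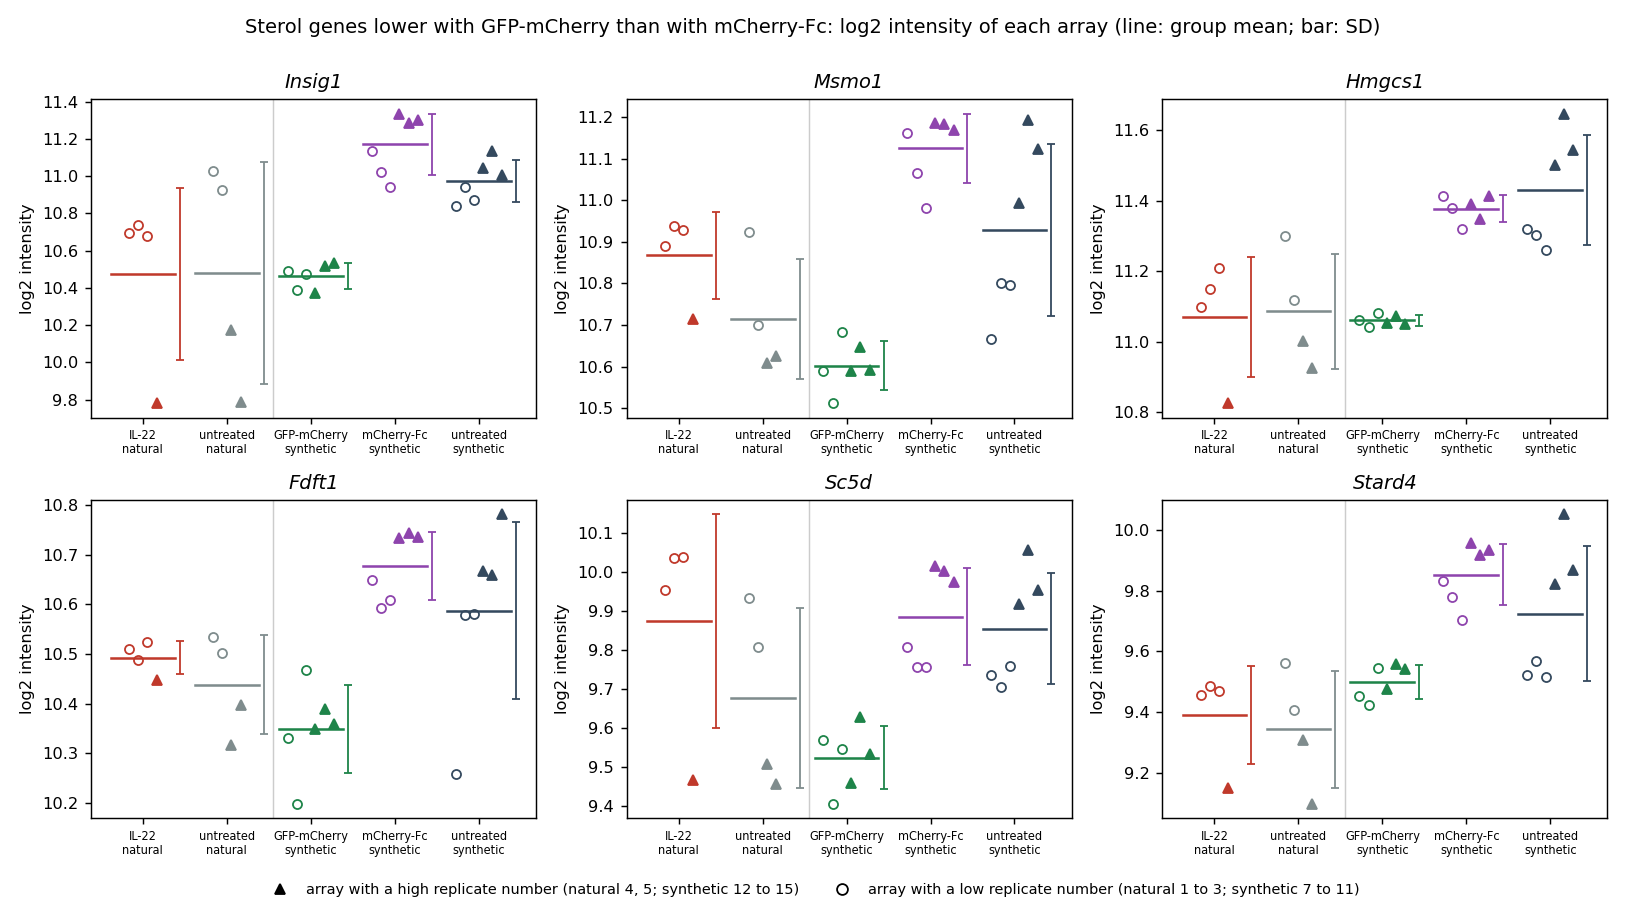
Log2 intensity of Insig1, Msmo1, Hmgcs1, Fdft1, Sc5d and Stard4 on each array (points), with group mean (line) and SD (bar). Filled triangles are arrays with high replicate numbers. With GFP-mCherry all 6 arrays lie below all 6 mCherry-Fc arrays in every panel, as in Insig1 at 10.37 to 10.53 against 10.94 to 11.33.

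The promoters of the members that were called lower in both GFP-mCherry comparisons and that have an entry in the RefSeq promoter table (GRCm38.p6) are shown to let a reader see what they share. Each line is the strand of the gene, 5′ to 3′, and ends at the base before the annotated start. Capitals mark the CCAAT box (CCAAT, or ATTGG where it lies on the other strand), the site of the factor NF-Y, which is known to act beside SREBPs. In Hmgcs1 they also mark the sterol regulatory element (SRE), searched as TCACNCCAC on both strands. The windows are chr5:28071162-28071411 (plus strand) for Insig1, chr8:64733579-64733828 (minus) for Msmo1, chr9:42264301-42264550 (minus) for Sc5d and chr13:119690101-119690350 (plus) for Hmgcs1.
Insig1: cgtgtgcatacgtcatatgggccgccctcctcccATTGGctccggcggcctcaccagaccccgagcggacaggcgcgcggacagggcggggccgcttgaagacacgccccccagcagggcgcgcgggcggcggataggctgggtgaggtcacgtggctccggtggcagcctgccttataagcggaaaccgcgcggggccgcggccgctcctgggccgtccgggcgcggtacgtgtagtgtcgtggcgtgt
Msmo1: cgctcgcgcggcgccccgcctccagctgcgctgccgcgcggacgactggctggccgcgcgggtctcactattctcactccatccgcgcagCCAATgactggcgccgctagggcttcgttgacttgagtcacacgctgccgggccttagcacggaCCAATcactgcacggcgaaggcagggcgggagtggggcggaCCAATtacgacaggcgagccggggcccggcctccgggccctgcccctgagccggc
Sc5d: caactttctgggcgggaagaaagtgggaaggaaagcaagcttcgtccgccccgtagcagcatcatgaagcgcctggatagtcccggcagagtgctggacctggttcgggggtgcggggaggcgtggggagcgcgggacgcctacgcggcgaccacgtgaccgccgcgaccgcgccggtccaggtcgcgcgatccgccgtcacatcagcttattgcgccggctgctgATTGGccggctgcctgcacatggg
Hmgcs1: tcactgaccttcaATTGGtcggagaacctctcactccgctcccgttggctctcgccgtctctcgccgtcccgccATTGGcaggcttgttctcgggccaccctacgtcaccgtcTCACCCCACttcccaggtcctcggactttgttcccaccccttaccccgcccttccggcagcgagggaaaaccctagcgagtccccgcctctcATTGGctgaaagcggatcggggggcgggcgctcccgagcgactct

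Hmgcs1 held the SRE match, TCACCCCAC, starting 137 bases before the start, with CCAAT boxes starting 237, 176 and 45 bases before it. Msmo1 held CCAAT boxes starting 160, 96 and 55 bases before the start. Insig1 held 1 at 216 bases and Sc5d 1 at 24 bases. Motifs were counted in the table's full windows of 300 bases, 250 before and 50 after the start, and 29 of the 37 genes had an entry. Some genes have several windows, and a gene was counted where any of them held the motif. A CCAAT box was found in all 14 sterol enzymes with an entry and in 4 of 5 control genes. It was found in 4 of 8 fatty acid enzymes and 1 of 2 LXR targets, against 41.1% of all genes in the table. By window the counts were 14 of 17, 5 of 10, 4 of 9 and 1 of 2 in the same order, against 37.4% of all windows. The GC box GGGCGG, which the factor Sp1 binds, lay in 13 of 14 sterol enzymes and 5 of 5 control genes. It lay in 2 of 2 LXR targets and 4 of 8 fatty acid enzymes, against 38.2% of genes. By window the counts were 14 of 17, 8 of 10, 2 of 2 and 4 of 9 in that order, against 35.7% of windows. The SRE letters were found in 1.24% of all windows and, among the members, only in Hmgcs1. The E-box CACGTG lay in 3 of 14 sterol enzymes, Sc5d among them, and in the control genes Insig1 and Scap. It lay in 1 of 2 LXR targets and in 0 of 8 fatty acid enzymes, against 8.09% of genes. By window the counts were 3 of 17, 3 of 10, 1 of 2 and 0 of 9 in that order, against 7.15% of windows. All motifs were searched on both strands, matches of different motifs can share bases, and a match describes letters in the window and not a bound site. Sterol enzymes that rose and that fell with GFP-mCherry alike held CCAAT boxes, Pmvk, Mvd and Ebp included.

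The responses of the 2 receptor systems were then compared by their difference, taken as the change with GFP-mCherry less that with IL-22. 8 of 37 genes differed, 3 more positive and 5 more negative with GFP-mCherry, against 13.6% of all genes, 9.23% more positive and 4.4% more negative. Lpin1 (0.90 ± 0.23, adjusted p = 0.00824), Mylip (0.77 ± 0.11, adjusted p = 1.20e-05) and Tm7sf2 (0.32 ± 0.09, adjusted p = 0.0198) fell with IL-22 (-0.96, -0.997 and -0.27), and changed by -0.06, -0.22 and 0.05 with GFP-mCherry. Cyp51 (-0.77 ± 0.21, adjusted p = 0.0145), Elovl6 (-0.61 ± 0.17, adjusted p = 0.0184), Sc5d (-0.53 ± 0.15, adjusted p = 0.0137), Msmo1 (-0.48 ± 0.12, adjusted p = 0.00602) and Hmgcs1 (-0.35 ± 0.11, adjusted p = 0.0298) were more negative with GFP-mCherry. Of these, Cyp51 changed by -0.34 with GFP-mCherry and by 0.43 with IL-22, neither called on its own. Elovl6, which lengthens palmitate, changed by -0.26 with GFP-mCherry and by 0.34 with IL-22, likewise without a call. Sterol enzymes supplied 4 of the 5 negative differences, and their median difference was -0.20, against 0.10 over the fatty acid enzymes and -0.02 over all genes. Cyp51 and Mylip were called in every setting run, Cyp51 at -0.41 within low numbers.

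For mCherry-Fc, 5 of 37 genes differed from IL-22, all more positive, against 13.4% of all genes, 8.76% more positive and 4.6% more negative. They were Lpin1 (1.01 ± 0.23, adjusted p = 0.00348), Mylip (0.79 ± 0.11, adjusted p = 9.72e-06), Abcg1 (0.43 ± 0.09, adjusted p = 0.00101), Tm7sf2 (0.36 ± 0.09, adjusted p = 0.0101) and Srebf1 (0.30 ± 0.08, adjusted p = 0.00994). Each of these genes fell with IL-22. The share of members called was close to that of all genes, so it does not set these members apart. Of the genes called, only Mylip kept its call in every setting run. Tm7sf2 lost its call within low numbers and Srebf1 with quantile normalization, and both also lost it within high numbers. Lpin1 and Abcg1 lost theirs within high numbers only, where a single IL-22 array enters the difference. Limma called 0 sterol enzymes more negative with mCherry-Fc than with IL-22, also at an unadjusted p under 0.05, and the median difference over that arm was 0.00. Both differences use the same natural arrays and the same untreated synthetic arrays, so they are not independent of each other. Cells with natural and synthetic receptors are also different lines.

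Those lines differed before any protein was added. Untreated synthetic receptor cells had higher levels of 19 of the 37 genes and a lower level of 1, Me1, than untreated natural receptor cells, against 15.2% of all genes called, 8.6% higher and 6.62% lower. The calls took in 10 of 17 sterol enzymes, all higher, 5 fatty acid enzymes higher and 1 lower of 11, 2 of 6 control genes and 2 of 3 LXR targets. The median difference was 0.34 over the sterol enzymes, 0.12 over the fatty acid enzymes and 0.01 over all genes.

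Fads2, the desaturase that starts polyunsaturated fatty acid synthesis, had 11.48, 11.51 and 11.58 (lowest, median, highest) in synthetic cells, against 11.13, 11.14, 10.52 and 10.24 in natural cells (0.76 ± 0.13, adjusted p = 0.000147). Dhcr7 had 10.59, 10.77 and 10.99 in synthetic cells, against 10.28, 10.26, 9.88 and 9.81 in natural cells (0.71 ± 0.11, adjusted p = 2.71e-05). Neither pair of groups overlapped. Acss2, which makes acetyl-CoA from acetate, had 9.49, 9.61 and 9.80 in synthetic cells, against 9.11, 9.09, 8.93 and 8.88 in natural cells (0.63 ± 0.09, adjusted p = 9.71e-06). Abca1 had 9.36, 9.61 and 9.78 in synthetic cells, against 9.27, 9.37, 8.54 and 8.38 in natural cells (0.70 ± 0.15, adjusted p = 0.00158). Elovl6 had 10.74, 10.86 and 11.02 in synthetic cells, against 10.63, 10.55, 10.04 and 9.89 in natural cells (0.58 ± 0.12, adjusted p = 0.00131). In Abca1 the highest natural array, replicate 3, exceeded the lowest synthetic array, whereas Acss2 and Elovl6 did not overlap. Lss (0.58 ± 0.14, adjusted p = 0.00350) came next. Within low numbers Abca1 (0.13, adjusted p = 0.413), Elovl6 (0.18, adjusted p = 0.123) and Lss (0.17, adjusted p = 0.223) were not called, and within high numbers they were at 1.28, 0.99 and 0.99.

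Among the other members, Nsdhl (0.55 ± 0.09), Fdps (0.49 ± 0.09), Mvk (0.41 ± 0.09), Mvd (0.37 ± 0.09), Srebf1 (0.29 ± 0.06) and Abcg1 (0.33 ± 0.06) were higher in synthetic cells with no overlap of the groups. Insig1 (0.49 ± 0.18, adjusted p = 0.0581), Idi1 (0.53 ± 0.19, adjusted p = 0.0533) and Srebf2 (0.18 ± 0.07, adjusted p = 0.106) were not called. Sqle stood level, with 9.46, 9.75 and 9.97 in synthetic cells, against 9.79, 9.76, 9.69 and 9.72 in natural cells. Me1, the malic enzyme that yields NADPH, had 9.89, 9.96 and 10.03 in synthetic cells, against 10.07, 9.97, 10.54 and 10.71 in natural cells (-0.38 ± 0.13, adjusted p = 0.0399), and its second probe set did not pass (-0.35, adjusted p = 0.0709). The Me1 call was lost in 12 of 21 settings, among them each fit without 1 of 7 arrays, and the difference was -0.11 within low numbers.

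The size of the line difference depended on the replicate numbers. Within low numbers 10 of the 37 genes were called, against 11.8% of all genes, and within high numbers 34, of which 32 were higher in synthetic cells, against 28.8% of all genes. Mvk, Mvd, Fdps, Nsdhl, Dhcr7, Acss2, Fads2 and Abcg1 were called in every setting run. Cyp51 differed by 0.52 over all arrays, by -0.01 (adjusted p = 0.957) within low numbers and by as much as 1.05 within high numbers. The lines share no replicate number, so no fit with the number as a block could be made. With 1 term for the range shared by both lines, 22 members were called, 21 higher and 1 lower, against 17.3% of all genes, Idi1 and Insig1 being gained, although the range ran in opposite directions in the lines. Cell type markers were also counted between the untreated lines, against 15.2% of all genes called. Limma called 0 of 11 B lineage markers, 0 of 6 T cell markers and 4 of 10 myeloid and mast cell markers. Of these 4, 3 were lower and 1, Prtn3, was higher in untreated synthetic cells (10.59 in synthetic and 10.02 in natural untreated cells). Itgam stood at 5.59 in synthetic and 10.34 in natural untreated cells, and the part of such differences in the lipid genes was not tested.

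**Figure D4:**
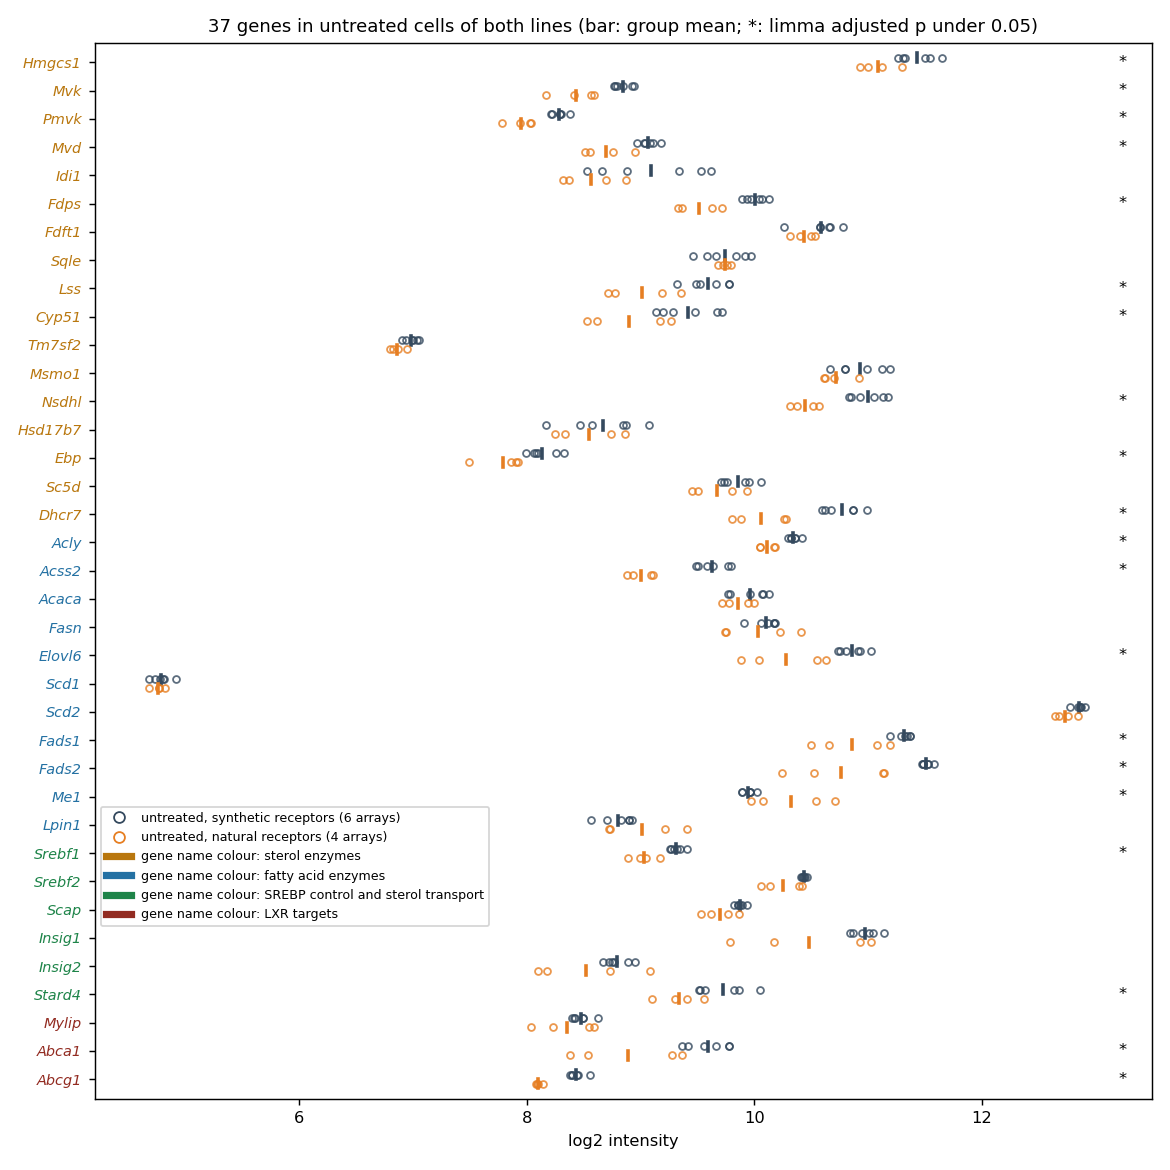
Log2 intensity of the 37 genes on each array of untreated cells with synthetic receptors (upper points of each gene) and natural receptors (lower points), with group means (bars). Stars mark limma adjusted p below 0.05. Of the 20 starred genes, 19 lie further right in synthetic cells, for example Dhcr7, and Me1 lies further left.

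The sterol genes differed with the range of the replicate number, in opposite directions in the 2 lines and least with GFP-mCherry. In natural cells 16 of 17 sterol enzymes were lower in high-numbered than in low-numbered arrays, both with IL-22 (median -0.28) and untreated (median -0.28). In synthetic cells 17 of 17 were higher in high-numbered arrays with mCherry-Fc (median 0.27) and 16 of 17 when untreated (median 0.25). With GFP-mCherry 7 of 17 were higher (median -0.03). The median over all genes was between -0.06 and 0.00 in the 5 groups. Sign aside, the median size over all genes was also smallest with GFP-mCherry (0.07). It was 0.11 with mCherry-Fc, 0.15 in untreated synthetic cells, 0.14 with IL-22 and 0.11 in untreated natural cells. Over the sterol enzymes it was 0.04 with GFP-mCherry, 0.27 with mCherry-Fc and 0.25 in untreated synthetic cells. A small range difference with GFP-mCherry was thus not confined to the sterol genes. These are descriptions of arrays split by number, with 1 to 3 arrays on a side, and carry no test.

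Insig1 differed by -0.92 with IL-22 and by -0.997 in untreated natural cells between high and low numbers. It differed by 0.02 with GFP-mCherry, 0.27 with mCherry-Fc and 0.18 in untreated synthetic cells. Lss was likewise lower in high-numbered natural arrays, with -0.69 and -0.53 in natural cells with IL-22 and untreated, 0.02 with GFP-mCherry, 0.39 with mCherry-Fc and 0.30 in untreated synthetic cells. Insig2 ran against them in natural cells (1.23 with IL-22, 0.77 untreated) and was nearly level in the synthetic groups (-0.04, -0.07 and 0.00). Lpin1 (1.09 and 0.58) and Me1 (0.79 and 0.60) were likewise higher in high-numbered natural arrays with IL-22 and untreated, and Scd2 moved little (-0.04 and -0.14).

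Of the synthetic groups, GFP-mCherry had the smallest SD for 18 of the 37 genes and the largest for 6. The same count was not made over all genes, so it is not read as a trait of these members. The SD of Hmgcs1 was 0.02 with GFP-mCherry, 0.04 with mCherry-Fc and 0.16 in untreated cells. That of Idi1 was 0.16, 0.25 and 0.46, with values of 8.97 to 9.31, 9.02 to 9.61 and 8.53 to 9.62. Idi1 was not called with GFP-mCherry over all arrays (0.07 ± 0.17), but its change was 0.50 (adjusted p = 0.00323) within low numbers and -0.35 (adjusted p = 0.0162) within high numbers. Cyp51 changed by -0.56 (adjusted p = 0.000422) with GFP-mCherry within high numbers. For Insig1 the GFP-mCherry arrays lay below the untreated ones in both ranges.

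The sterol and fatty acid arms were set against each other by their mean log2 intensity per array, as a description with no test. The sterol mean was 9.28 ± 0.17 (SD, n = 4) with IL-22 and 9.20 ± 0.17 (n = 4) in untreated natural cells. It was 9.45 ± 0.07 with GFP-mCherry, 9.65 ± 0.15 with mCherry-Fc and 9.55 ± 0.15 in untreated synthetic cells (n = 6 each). The fatty acid mean was 9.68 ± 0.04 with IL-22 and 9.79 ± 0.11 in untreated natural cells, and 9.95 ± 0.04 with GFP-mCherry, 10.02 ± 0.04 with mCherry-Fc and 10.01 ± 0.04 in untreated synthetic cells. In the synthetic groups the sterol mean thus varied more between arrays than the fatty acid mean did.

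The sterol mean minus the fatty acid mean changed by 0.20 with IL-22, by -0.04 with GFP-mCherry and by 0.09 with mCherry-Fc. For GFP-mCherry against mCherry-Fc it was -0.13. The pooled SD of this difference between single arrays of a group was 0.10. That SD is not the precision of these changes, which compare means of 4 or 6 arrays and were not tested. Between untreated lines the sterol mean minus the fatty acid mean was 0.13 higher in synthetic cells. Without Lpin1 in the fatty acid arm, a choice made after seeing the data, the IL-22 change was 0.11, and the line difference was 0.092. The contrast of the ligands was 0.00 within low numbers and -0.26 within high numbers, and the IL-22 change was 0.05 within high numbers.

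**Figure D5:**
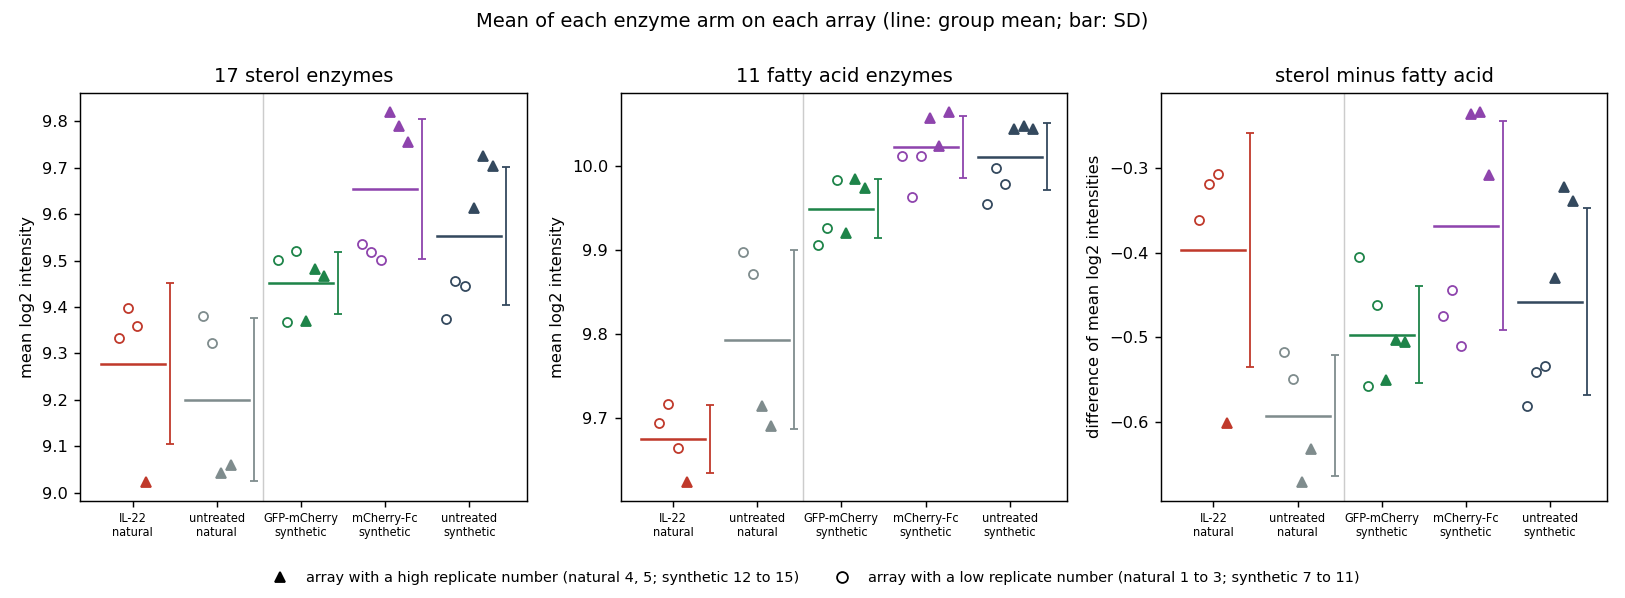
Mean log2 intensity of the 17 sterol enzymes, of the 11 fatty acid enzymes and their difference on each array (points), with group mean (line) and SD (bar). Filled triangles are arrays with high replicate numbers. High-numbered arrays lie low for the sterol enzymes in natural cells and high in mCherry-Fc and untreated synthetic cells, and the fatty acid means of the synthetic groups stay within 9.91 to 10.06.

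Neighbouring genes outside the 37 were counted from lists of the same pathways, against 11.4% of all genes called with IL-22, 26% with GFP-mCherry, 26.9% with mCherry-Fc and 1.09% between the 2 ligands. Of 8 measured sterol and isoprenoid neighbours, 2 were lower with IL-22 (Npc1 -0.30, adjusted p = 0.00187; Osbp -0.24, adjusted p = 0.00699), 2 were higher and 1 lower with GFP-mCherry, and 3 were higher and 1 lower with mCherry-Fc. Npc1, which exports cholesterol from lysosomes, fell in all 3 comparisons with untreated cells (-0.25 with GFP-mCherry and -0.22 with mCherry-Fc). Tmem97, a regulator of Npc1, rose with GFP-mCherry (0.30) and mCherry-Fc (0.43). Of 12 genes of fatty acid activation, elongation and glycerolipids, 0 were called by limma with IL-22 (3 at an unadjusted p under 0.05), 5 with GFP-mCherry, all higher, and 8 with mCherry-Fc, 7 of them higher. Hsd17b12, an enzyme of fatty acid elongation, led both with 0.50 (adjusted p = 2.32e-06 with GFP-mCherry and 4.22e-06 with mCherry-Fc). Of 6 genes of LXR receptors and oxysterols, 0 were called by limma with IL-22 (0 at an unadjusted p under 0.05), 2 lower with GFP-mCherry, and 1 higher and 1 lower with mCherry-Fc. Of 8 fatty acid oxidation genes, Cpt1a, the gate of mitochondrial uptake, rose with IL-22 (0.51, adjusted p = 7.49e-06), 2 were higher with GFP-mCherry and 1 with mCherry-Fc. Between GFP-mCherry and mCherry-Fc, limma called 0 of these 34 genes, and 5 had an unadjusted p under 0.05.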

How the data were processed

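The 26 Affymetrix Mouse Gene arrays measured RNA in 5 groups. Per the labels, the authors deposited a log2 intensity for each probe set, from a core-level analysis (gene or exon). The software was Affymetrix Expression Console 4.0, per the submitters' processing notes. The normalization algorithm is not given in the sources used here. Of 35556 probe sets, 21789 carry 1 gene symbol in the platform annotation supplied, and the brightest of each gene was used (19938 genes, no filter on dim genes). All 26 columns were mapped to samples.

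All arrays entered 1 linear model with a mean per group (R 4.3.3, limma 3.58.1, lmFit and eBayes, two-sided). P-values were adjusted by Benjamini-Hochberg over all genes, with a threshold of 0.05, in 7 comparisons. The test was checked on simulated data with independent noise for each gene and array. Those data held no deviation shared by genes of an array and no number range, so the check does not cover such effects. Arrays of a group correlated at 0.981 to 0.994 and no 2 were identical. The number of arrays limits the precision. The 37 genes, their arms, the neighbouring lists, the genes written out in full (16 by name, and the called ones among the 6 largest changes of each comparison) and the split by replicate number were chosen with earlier results of these data known.

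Same-numbered arrays were checked for shared deviations from their group means. The correlations were 0.313 to 0.621 between IL-22 and untreated natural cells, 0.260 to 0.466 between mCherry-Fc and untreated cells and 0.105 to 0.271 between GFP-mCherry and mCherry-Fc, and the numbers were taken as pairs where every one exceeded 0.1. Alternatives were another normalization, centring, filters, variance settings, the replicate block, the number range and leaving out each array. Promoter sequences came from RefSeq (GRCm38.p6).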

Additional observations from a re-analysis of the deposited data

Results flagged for a closer look

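Single arrays stood apart from their group in 19 of 190 sets of 4 or 6 arrays tested by the gap of the outermost array over the range, where chance gives about 5% of sets, and 15 of the 19 were IL-22 replicate 5. That array was the lowest IL-22 array for Mvk (8.13, the next at 8.39), Lss (8.50 and 9.16), Nsdhl (10.22 and 10.47), Sc5d (9.47 and 9.95), Fasn (9.85 and 10.45), Elovl6 (10.11 and 10.74), Fads1 (10.27 and 10.85), Fads2 (10.16 and 10.86), Scap (9.56 and 9.73), Insig1 (9.78 and 10.68) and Stard4 (9.15 and 9.46). It was the highest IL-22 array for Me1 (10.73, the next at 9.98), Lpin1 (8.87 and 7.83), Insig2 (9.14 and 7.98) and Abcg1 (7.87 and 7.62). It is the only IL-22 array with a high replicate number, and the untreated natural arrays 4 and 5 lay to the same side of untreated arrays 2 and 3 for all of these genes but Abcg1, as in Insig1 at 10.17 and 9.79. What the number range stands for was not tested.

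Of the other outermost arrays, untreated natural replicate 4 was lowest for Ebp (7.49, the next at 7.86), GFP-mCherry replicate 12 was highest for Acly (10.49 and 10.41), mCherry-Fc replicate 9 was lowest for Scd2 (12.71 and 12.76) and mCherry-Fc replicate 8 was lowest for Srebf1 (9.27 and 9.40).

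Responses that differed between the receptor systems by a test of the difference (limma, adjusted p under 0.05) are listed as values. For GFP-mCherry minus IL-22 they were Hmgcs1 (-0.35), Cyp51 (-0.77), Tm7sf2 (0.32), Msmo1 (-0.48), Sc5d (-0.53), Elovl6 (-0.61), Lpin1 (0.90) and Mylip (0.77). For mCherry-Fc minus IL-22 they were Tm7sf2 (0.36), Lpin1 (1.01), Srebf1 (0.30), Mylip (0.79) and Abcg1 (0.43). The natural arrays of both number ranges enter each of these values, and Hmgcs1 lost its call in 10 of 32 settings.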

How the results depend on the processing

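Among called members, 1 of 8 with IL-22 (Mylip), 2 of 12 with GFP-mCherry (Hmgcs1, Lss), 0 of 6 with mCherry-Fc, 2 of 7 between GFP-mCherry and mCherry-Fc (Msmo1, Insig1), 2 of 8 and 1 of 5 for the differences of GFP-mCherry and mCherry-Fc from IL-22, and 8 of 20 between lines were called in every setting. The counts of called members moved by over 1.5 times as follows, against 8, 12, 6, 7, 8, 5 and 20 in that order of comparisons. IL-22 had 4 with only the groups compared, 5 at 1.2-fold or more, 14 with the number range as a term, 14 within low and 1 within high numbers. GFP-mCherry had 6 with median centring and 7 at 1.2-fold. mCherry-Fc had 2 with quantile normalization, 2 at 1.2-fold and 11 with the range term. GFP-mCherry against mCherry-Fc had 4 with the replicate block and 12 within high numbers. GFP-mCherry minus IL-22 had 14 with the range term and 5 within high numbers. mCherry-Fc minus IL-22 had 8 with median centring, 10 with the replicate block, 14 with the range term, 12 within low and 2 within high numbers. The lines had 10 within low and 34 within high numbers. Leaving out 1 array gave 6 to 14, 11 to 14, 2 to 7, 4 to 7, 6 to 14, 5 to 8 and 17 to 25. Without IL-22 replicate 5 the counts were 14, 14 and 8 for IL-22 and both differences, and mCherry-Fc had 2 or 3 without untreated replicate 7, 9 or 11 or mCherry-Fc replicate 13 or 14. Without mCherry-Fc replicate 13, GFP-mCherry against mCherry-Fc had 4. With the replicate block, GFP-mCherry against untreated had 15, where same-numbered arrays correlated at -0.146 to 0.417, not all above 0.1, so that the numbers were not taken as pairs. There 4 of 12 arrays correlated best with their own number, against 4 of 6, 2 of 6 and 3 of 6 in the pairs taken for IL-22, mCherry-Fc and GFP-mCherry against mCherry-Fc.

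The sterol minus fatty acid difference moved by over 1 SD within low numbers for GFP-mCherry (0.077), GFP-mCherry against mCherry-Fc (0.0022), GFP-mCherry minus IL-22 (-0.13) and the lines (-0.018). Within high numbers it did so for IL-22 (0.051), GFP-mCherry (-0.16), GFP-mCherry against mCherry-Fc (-0.26), mCherry-Fc minus IL-22 (0.054) and the lines (0.29). Among members called over all arrays or in that setting, direction turned for Idi1 with GFP-mCherry within high numbers (-0.35), and between lines for Cyp51 (-0.013) and Hsd17b7 (-0.40) within low and Sqle (0.20) within high numbers. Median centring raised the share of calls that were higher, over all genes, to 88.5% (54.8% as deposited) with GFP-mCherry, 88.8% (51.9%) with mCherry-Fc, 83.2% (67.7%) for GFP-mCherry minus IL-22 and 82.8% (65.6%) for mCherry-Fc minus IL-22. The median of all genes moved by 0.102 and 0.106 for the 2 ligands. The cause of these moves was not tested. No paired fit was possible between lines, which share no number. A range term shared by both lines and a fatty acid arm without Lpin1 were added after seeing the data. A range holds at most 3 arrays of a group, and the single IL-22 array of the high range was given the spread estimated from the other arrays.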
